A study of Mus musculus with 36 samples.

Results

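The phagocyte NADPH oxidase is the enzyme that neutrophils and macrophages use to make superoxide, and the genes described here encode its subunits: Cybb, Cyba, Ncf1, Ncf4 and Rac2, with Nox4, a relative of Cybb that uses the same membrane partner. These 6 genes, of 55291 in the count table, were chosen by name from a table whose results were already known, in which Cybb was among the few genes that were lower after injury. Their levels, fold changes and calls are therefore a description that supports nothing, and no p-value is printed for them. The libraries came from knee joint tissue of mice collected at 24 h, in 3 groups of 3 biological replicates. Sham mice had no injury of the anterior cruciate ligament (ACL), vehicle mice had the ACL injury and saline, and inhibitor mice had the ACL injury and an inhibitor of protein kinase C (PKC). The labels name neither the inhibitor and its dose nor the strain, age or sex of the mice, nor how many animals a library stands for. The series holds 36 libraries, of which the 27 of a time course and of a comparison of further inhibitors were not analysed here.

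In resting phagocytes the oxidase lies apart in the cell. Cybb, the catalytic subunit, and Cyba, the small subunit that stabilises it, form a haem-bearing pair in the membrane, while the products of Ncf1 and Ncf4 wait in the cytosol and Rac2 is a small GTPase that switches between an inactive and an active state. On stimulation, kinases that include PKC phosphorylate the Ncf1 protein, the cytosolic subunits and Rac2 dock on the membrane pair, and electrons pass from NADPH to oxygen. Nox4 also pairs with Cyba but needs no cytosolic subunits, and it is known from mesenchymal and endothelial cells more than from phagocytes. Transcript counts measure the RNA of the subunits and say nothing of their assembly or activity.

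The libraries held 124 to 202 M counts each, of which 96.3 to 99.3% fell on small RNA genes and predicted gene models and 1.09 to 4.51 M on protein-coding genes. Inhibitor libraries 1 and 2 stood apart, with 1.81% and 3.51% of counts on protein-coding genes against 0.646 to 1.47% in the other 7, and values that turned or moved most without them are given beside the result. Skeletal muscle and endothelial genes were highest in inhibitor library 1, as given with the cell markers below. The tissue label could be checked against defining markers: Col2a1 of cartilage had 1262 to 8698 counts and Col1a1 of bone and fibrous tissue 28952 to 57173 counts in the 9 libraries. Markers of leukocytes, red cells and muscle were counted in every library as well, so the RNA was that of a mixed joint tissue. The protocol of the later sets calls the tissue of these libraries cartilage.

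The promoters of the membrane pair are shown because Cybb separated sham from both injured groups while Cyba overlapped between the groups. RefSeq promoters (GRCm38.p6) were found for 4 of the 6 genes, Cybb, Cyba, Ncf1 and Nox4. Each line gives the 250 bases before the annotated start, 5′ to 3′ on the strand of the gene, at chrX:9469325-9469574 for Cybb and chr8:122432941-122433190 for Cyba, both on the minus strand. Capitals mark a CCAAT box.
Cybb: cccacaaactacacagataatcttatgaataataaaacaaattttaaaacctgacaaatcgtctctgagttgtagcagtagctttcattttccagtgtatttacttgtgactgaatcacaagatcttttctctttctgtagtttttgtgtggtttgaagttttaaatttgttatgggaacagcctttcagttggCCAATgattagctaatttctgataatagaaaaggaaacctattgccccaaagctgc
Cyba: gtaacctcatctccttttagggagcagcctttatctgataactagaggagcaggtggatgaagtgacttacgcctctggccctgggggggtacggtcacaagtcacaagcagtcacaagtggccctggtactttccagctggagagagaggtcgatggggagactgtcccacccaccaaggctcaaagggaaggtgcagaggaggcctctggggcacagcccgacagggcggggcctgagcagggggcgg
The Cybb window was 34.0% G and C and the Cyba window 60%, against a median of 52.4% over 32851 RefSeq promoters of the same length. CCAAT stood 56 to 52 bases before the Cybb start, and 33.8% of all promoters hold it or its reverse complement. GAGGAA, a form of the site bound by the myeloid factor PU.1, is in 23.3% of promoters. TGACTCA of AP-1 is in 4.5% and GGAATG of TEAD factors in 12.6%. Searched on both strands, these letters were in none of the windows of Cybb, Cyba, Ncf1 and Nox4. Shorter forms such as GGAA were not searched. The RefSeq start of Cybb lies inside the longer gene model used for counting, which spans 9435252 to 9487771 on chromosome X. These matches describe letters and no binding was measured.

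Of the 6 transcripts, Cybb was the one whose level separated sham joints from both injured groups. It was 2.22-fold lower in vehicle joints and 2.32-fold lower in inhibitor joints than in sham joints, while Cyba, Ncf1 and Ncf4 overlapped between the groups in every comparison. Rac2 was lower in all vehicle libraries than in all sham libraries, by a smaller margin. Nox4, at a low level throughout, was highest in a pair of inhibitor libraries. In bulk tissue, fewer cells of a type and less RNA per cell cannot be told apart.

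A gene was called where edgeR's quasi-likelihood test, adjusted by Benjamini-Hochberg over all 13823 genes tested, was under 0.05. Between vehicle and sham, 1 of the 6 genes was called, lower, where 0.304% of all genes were called, and 2 had libraries that did not overlap, where 17% of all genes did not. Between inhibitor and vehicle, 0 of 6 were called by edgeR or by DESeq2, where 0.731% of all genes were called. In this comparison 0 of 6 had libraries that did not overlap, against 18.9% of all genes. Between inhibitor and sham, 1 of 6 was called, lower, where 3.95% of all genes were called, and 1 of 6 did not overlap, against 22.9% of all genes. An unadjusted p under 0.05 was reached by 1, 1 and 3 of the 6 in these comparisons, and by 8.28%, 13.4% and 17.96% of all genes. The 3 include Nox4, which passed the filter on low counts only through the inhibitor libraries. The median log2 fold change of the 6 genes was −0.20, 0.09 and −0.08 in these comparisons, beside −0.02, 0.04 and 0.03 over all genes. The inhibitor comparisons share the vehicle or the sham libraries with the injury comparison. Since the genes were chosen with these results known, nothing is read from the counts.

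Cybb, which encodes the flavin- and haem-binding subunit that passes the electrons, lies on chromosome X from 9435252 to 9487771 (mm10). Its normalised read counts, which are counts scaled to a common library size, were 327, 261 and 313 in sham libraries 1 to 3. After injury they were 126, 140.3 and 138 with vehicle, and 125, 162 and 97.4 with the inhibitor. The lowest sham library lay above the highest of the 6 injured libraries, and the vehicle and inhibitor libraries overlapped. Group means were 300.2 ± 34.7 in sham, 135 ± 7.46 in vehicle and 128 ± 32.5 in inhibitor joints (SD, n = 3 each). The raw counts behind these values were 166 to 281 in sham, 76 to 118 in vehicle and 75 to 416 in inhibitor libraries, the highest of them in inhibitor library 2, whose depth outside the small RNAs was greatest.

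The log2 fold change of Cybb was −1.15 (SE 0.22) for vehicle against sham, −0.06 (SE 0.22) for inhibitor against vehicle and −1.21 (SE 0.22) for inhibitor against sham. Over 16 other settings the first ran from −1.25 to −1.09 and kept its sign in each. It was called in 9 of them and not with a replicate block or without any single one of the 6 sham and vehicle libraries (sham 1, 2 and 3 and vehicle 1, 2 and 3 in turn). The difference between inhibitor and sham was called in all 16 settings. Without inhibitor libraries 1 and 2 it was −1.61, and the difference from vehicle was −0.47, both resting on 1 inhibitor library.

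Cyba, whose product anchors Cybb and Nox4 and offers the docking site for the cytosolic subunits, lies on chromosome 8 from 122424776 to 122432930. Its normalised counts were 129, 77.3 and 134 in sham, 145, 88.0 and 168 in vehicle and 101, 182 and 125 in inhibitor libraries. The groups overlapped, and the lowest library of sham and that of vehicle were both replicate 2. Log2 fold changes were 0.23 (SE 0.30) for vehicle against sham, 0.04 (SE 0.30) for inhibitor against vehicle and 0.27 (SE 0.30) for inhibitor against sham. In the injury comparison the estimates for the membrane pair had opposite signs, that of Cyba lying within its SE of 0. Without inhibitor library 2 the difference of Cyba between inhibitor and vehicle turned to −0.26, and without libraries 1 and 2 it was −0.10.

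**Figure D1:**
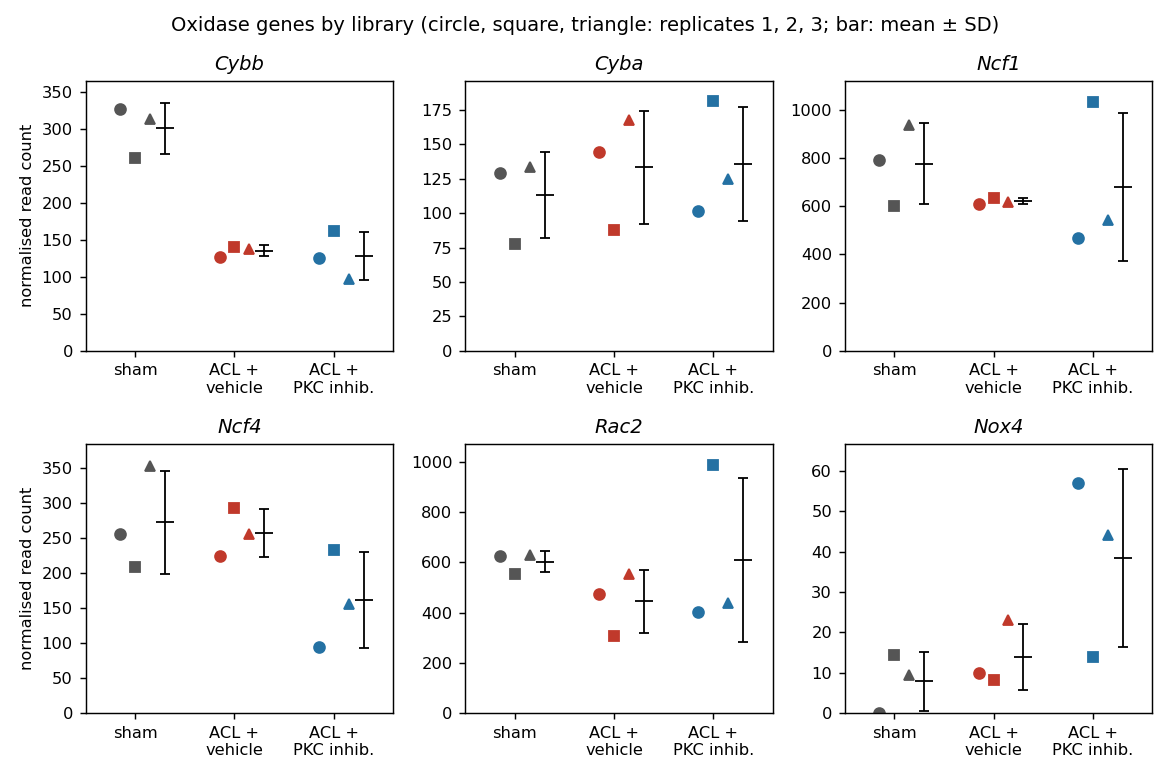
Normalised read counts of the 6 oxidase genes by library, with counts on the vertical axes (each from 0, on its own scale) and the 3 groups on the horizontal axes. Symbols are replicates 1 to 3 and bars are means ± SD (n = 3): all 3 sham libraries lie above the injured libraries for Cybb, and inhibitor library 2 is the highest of its group for Cyba, Ncf1, Ncf4 and Rac2.

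Ncf1 encodes the organiser subunit, the one that is phosphorylated on activation and carries the others to the membrane. It lies on chromosome 5 from 134220053 to 134229625. Its normalised counts were 791, 603 and 939 in sham, 609.8, 635 and 619 in vehicle and 467, 1034 and 543 in inhibitor libraries. The vehicle libraries lay close together and inside the range of the sham libraries, and the inhibitor libraries spanned both. The log2 fold change was −0.32 (SE 0.27) for vehicle against sham, 0.14 (SE 0.27) for inhibitor against vehicle and −0.19 (SE 0.27) for inhibitor against sham. Inhibitor library 2 set the sign of the second, which was −0.32 without it and −0.20 without libraries 1 and 2, while the third was −0.62 and −0.50.

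Ncf4 encodes the subunit that binds a phosphoinositide of the phagosome membrane. It lies on chromosome 15 from 78244801 to 78262580. Its normalised counts were 256, 208 and 353 in sham, 224, 292 and 255 in vehicle and 95.3, 232 and 156 in inhibitor libraries. Inhibitor libraries 1 and 3 lay below the other 7 libraries, and inhibitor library 2 lay inside the range of the sham and vehicle libraries. The log2 fold change was −0.08 (SE 0.29) for vehicle against sham, −0.67 (SE 0.29) for inhibitor against vehicle and −0.74 (SE 0.29) for inhibitor against sham. The first turned to 0.15 without sham 3 and to 0.01 without vehicle 1. Over the 16 settings the second ran from −1.06 without inhibitor 2 to −0.39 without inhibitor 1 and was not called in any.

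Rac2 encodes the GTPase of blood cells that neutrophils use for this oxidase. It lies on chromosome 15 from 78559167 to 78572783. Its normalised counts were 624, 553 and 628 in sham, 474, 309 and 552 in vehicle and 403, 985 and 439 in inhibitor libraries. All vehicle libraries lay below all sham libraries, but vehicle library 3 and sham library 2 were nearly level at 552 and 553. The log2 fold change was −0.44 (SE 0.32) for vehicle against sham, 0.46 (SE 0.32) for inhibitor against vehicle and 0.02 (SE 0.32) for inhibitor against sham. Vehicle library 2 carried much of the first, which was −0.21 without it. Without inhibitor library 2, the highest of all 9, the second was −0.10 and the third −0.52. Without libraries 1 and 2 they were −0.02 and −0.44.

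Rac1, the related GTPase of most cell types, can serve the oxidase in macrophages. Its normalised counts were 563, 557 and 492 in sham, 573, 461 and 548 in vehicle and 686, 755 and 518 in inhibitor libraries. The groups overlapped, with a log2 fold change of −0.03 (SE 0.20) for vehicle against sham (edgeR adjusted p = 0.989) and 0.31 (SE 0.20) for inhibitor against vehicle (edgeR adjusted p = 0.515). The latter was −0.03 without inhibitor libraries 1 and 2. The ratio of Rac2 to Rac1, per kilobase of exon, was 1.63 ± 0.206 in sham, 1.21 ± 0.245 in vehicle and 1.32 ± 0.525 in inhibitor libraries (SD, n = 3 each). Rac2 and Rac1 are close paralogues, and reads that matched both would have been counted for each.

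Nox4 encodes a constitutively active oxidase whose main product is hydrogen peroxide. It lies on chromosome 7 from 87246096 to 87398710. Its raw counts were 0, 11 and 5 in sham, 6, 7 and 17 in vehicle and 76, 36 and 34 in inhibitor libraries. Normalised counts were 0, 14.4 and 9.43 in sham, 9.97, 8.32 and 23.2 in vehicle and 57.0, 14.0 and 44.1 in inhibitor libraries. Inhibitor libraries 1 and 3 lay above the other 7, and inhibitor library 2 lay among the sham and vehicle libraries once its greater depth was taken into account. The 0 in sham library 1 allows up to 3.49 normalised counts, the value of 3 reads, which covers counting error only. Group means were 7.95 ± 7.32 in sham, 13.8 ± 8.15 in vehicle and 38.4 ± 22.1 in inhibitor joints (SD, n = 3 each).

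The log2 fold change of Nox4 was 0.84 (SE 0.90) for vehicle against sham, 1.44 (SE 0.78) for inhibitor against vehicle and 2.28 (SE 0.84) for inhibitor against sham. At this depth the first depended on single libraries, from 0.19 without sham 1 to 1.77 without sham 2. The second ran from 1.01 without inhibitor 1 to 2.04 without vehicle 3, and was 1.66 without inhibitor 1 and 2. Nox4 passed the filter on low counts only with the inhibitor libraries present and would not have been tested without them, whereas the other 5 genes passed either way. With no filter, the difference between inhibitor and sham was called. Nothing is read from this call, since Nox4 reached the level for testing only through the group where it was high. Endothelial markers summed to 1979 normalised counts in inhibitor library 1 and to no more than 801 in any other, but inhibitor library 3, with the next highest Nox4 level, had the lowest sum, 345. Skeletal muscle markers summed to 25905 in inhibitor library 1 and to 21582 in sham library 3, where Nox4 was at 9.43. Their part in the Nox4 level was not tested.

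**Figure D2:**
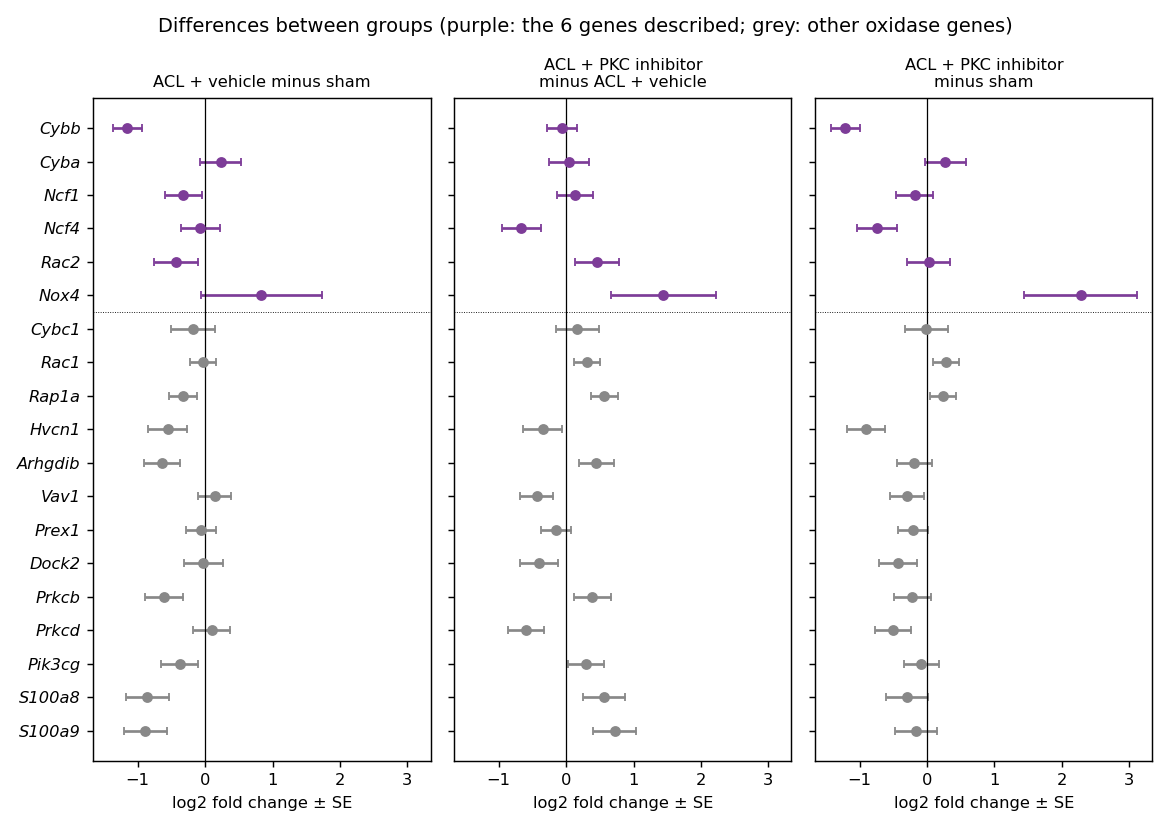
Log2 fold changes (horizontal axes, points, with bars of 1 SE) of the 6 oxidase genes in purple and of 13 further oxidase genes in grey, in the 3 comparisons. Cybb lies left of 0 in both comparisons with sham, at −1.15 and −1.21, and near 0 between inhibitor and vehicle, at −0.06; Nox4 has the widest bars.

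Within a library, shares among the 5 phagocyte subunits do not depend on how libraries were scaled. Cybb made up 15.4%, 15.3% and 13.2% of the counts of Cybb, Cyba, Ncf1, Ncf4 and Rac2 in sham libraries 1 to 3. After injury its share was 8%, 9.58% and 7.95% with vehicle and 10.5%, 6.25% and 7.16% with the inhibitor. The lowest sham share, 13.2% (95% exact binomial interval 11.4 to 15.2%, of 1255 counts), lay above the highest injured share, 10.5% (9.04 to 12.1%, of 1589 counts in inhibitor library 1), though their intervals met. The intervals cover counting error only. Mean shares were 14.6 ± 1.22% in sham, 8.51 ± 0.925% in vehicle and 7.97 ± 2.24% in inhibitor joints (SD, n = 3 each). This restates the levels above and is no separate support for them.

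The other subunits divided the rest differently. Ncf4 held 12.0 to 14.9% in sham, 14.2 to 19.97% in vehicle and 7.99 to 11.5% in inhibitor libraries, so its inhibitor shares lay below all others. Rac2 held 26.5 to 32.5% in sham, 21.1 to 31.9% in vehicle and 32.3 to 38.0% in inhibitor libraries. Ncf1 held the largest share in every library, from 35.4 to 43.3%. Per kilobase of exon, the ratio of Cybb to Cyba was 0.418 to 0.603 in sham, 0.147 to 0.285 in vehicle and 0.140 to 0.221 in inhibitor libraries, again with no overlap between sham and the injured groups. This ratio rests on the same Cybb counts and is no separate support.

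Set against 5 markers of all leukocytes (Ptprc, Itgb2, Coro1a, Laptm5 and Lcp1), Cybb counts were 9.97 to 11.9% of the marker counts in sham. They were 4.74 to 6.72% in vehicle and 3.80 to 6.52% in inhibitor libraries. For Cybb, the sham libraries did not overlap the injured libraries on this scale. Rac2 was at 21.2 to 23.4% in sham, 14.8 to 19.95% in vehicle and 20.7 to 23.1% in inhibitor libraries, its vehicle libraries below all others. Ncf4 was at 7.97 to 13.2%, 8.43 to 14.0% and 4.96 to 7.35%, its inhibitor libraries below all others. Cyba and Ncf1 overlapped between the groups. The scale uses the same subunit counts as the levels above and is no separate support for them. The 5 subunits together were 0.651 to 0.883 times the leukocyte marker counts in sham, 0.593 to 0.701 times in vehicle and 0.609 to 0.642 times in inhibitor libraries.

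**Figure D3:**
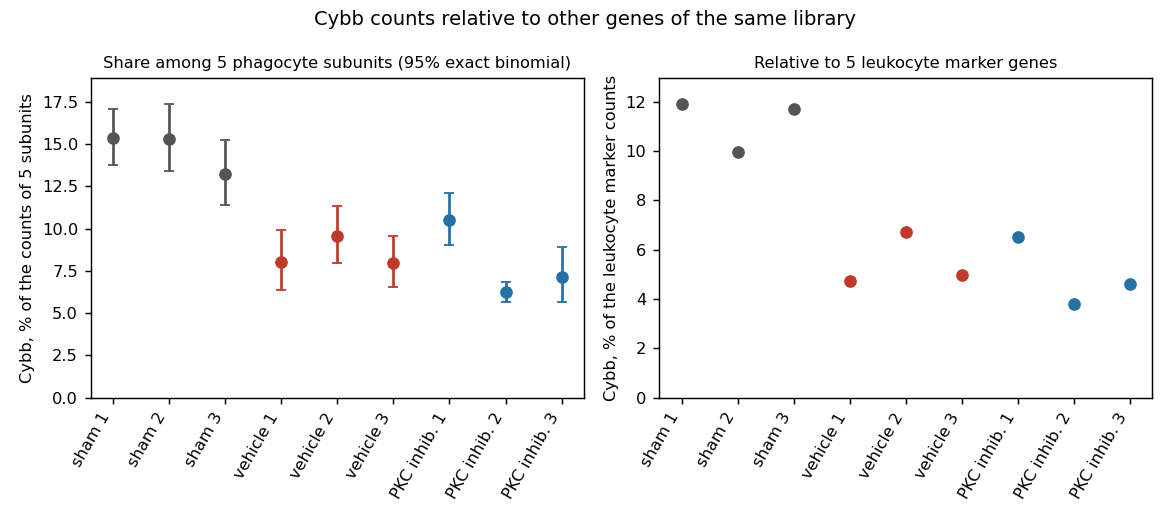
Cybb counts in each of the 9 libraries, left as a percentage of the counts of 5 phagocyte subunits with 95% exact binomial intervals, right as a percentage of the counts of 5 leukocyte marker genes. The sham libraries, at 13.2 to 15.4% on the left and 9.97 to 11.9% on the right, lie above all injured libraries.

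Compared per kilobase of exon, the order of levels in sham joints was Ncf1 (212 ± 46.0 normalised counts per kilobase), Rac2 (194 ± 13.6), Ncf4 (135 ± 36.4), Cyba (109 ± 30.2), Cybb (51.7 ± 5.98) and Nox4 (0.939 ± 0.865; SD, n = 3 each). Ncf1 overlapped Rac2 and Ncf4 overlapped Cyba, while Cyba lay above Cybb and Cybb above Nox4 with no overlap. Rac2 lay only just above Ncf4, with its lowest library at 178 and the highest of Ncf4 at 175. In vehicle joints Ncf1 (169.6 ± 3.44), Rac2 (143 ± 40.0), Cyba (128 ± 39.5) and Ncf4 (127 ± 16.9) followed each other with overlapping neighbours, then Cybb (23.2 ± 1.28) and Nox4 (1.63 ± 0.962) each stood apart. In inhibitor joints the order was Rac2 (196 ± 105), Ncf1 (186 ± 84.0), Cyba (131 ± 39.7), Ncf4 (79.7 ± 34.0), Cybb (22.1 ± 5.59) and Nox4 (4.53 ± 2.6). Neighbours from Rac2 to Ncf4 overlapped, so their order is not told apart by these libraries, and Cybb (16.8 to 27.9) and Nox4 (1.66 to 6.73) each stood apart. Cybb was the least abundant of the 5 phagocyte subunits per length in all 3 groups. These levels depend on the merged exon length of each gene, which for Cybb was 5808 bases and for Cyba 1039 bases.

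Across the 9 libraries, likeness was measured as the root mean square difference of log2 CPM (counts scaled to library size), each gene centred on its mean, so that 0 means the same course. Ncf1 and Rac2 were the closest pair of the 6 genes, at 0.280, followed by Cyba with Rac2 at 0.358 and Cyba with Ncf1 at 0.362. Among all tested genes, Rac2 ranked 205 in nearness to Ncf1 and 1022 in nearness to Cyba, so many other genes lay nearer. Cybb and Cyba were 0.746 apart, and Nox4 was 1.41 to 1.81 from each of the others. Of all tested genes, those nearest to Cybb were Pilrb2 (0.203), Ngp (0.221), Zfat (0.251), Zfp958 (0.252) and H2bc9 (0.281). Those nearest to Nox4 were Eya2 (0.469), Tbx3 (0.654), Zfp383 (0.662), Ddah1 (0.695) and Gm45844 (0.708), all farther away than the neighbours of Cybb. All values share the same 9 libraries and their depths, and a gene with few counts can have no close neighbour.

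Of 13 other genes of the phagocyte oxidase, its regulators and its partners, all were tested and 0 were called by edgeR or DESeq2 in any of the 3 comparisons. An unadjusted p under 0.05 was reached by 4 for vehicle against sham, by 3 for inhibitor against vehicle and by 1 for inhibitor against sham, where 8.28%, 13.4% and 17.96% of all genes reached it. For vehicle against sham 11 of 13 log2 fold changes were negative, with a median of −0.33 beside −0.02 over all genes. For inhibitor against vehicle 8 of 13 were positive, with a median of 0.30 beside 0.04. Over all genes 53.8% were positive in this comparison, and without inhibitor library 2 the count was 6 of 13. For inhibitor against sham 11 of 13 were negative, with a median of −0.21 beside 0.03. Over all genes, 48.1% were positive for vehicle against sham and 52.4% for inhibitor against sham.

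S100a8 and S100a9 encode the calcium-binding pair that makes up much of the neutrophil cytosol and delivers arachidonic acid to the oxidase. S100a9 had 5536, 4537 and 5254 normalised counts in sham, 3222, 2012 and 3065 in vehicle and 4054, 7010 and 2617 in inhibitor libraries. All vehicle libraries lay below all sham libraries, as they did for S100a8. The log2 fold change for vehicle against sham was −0.89 (SE 0.32, edgeR adjusted p = 0.383) for S100a9 and −0.86 (SE 0.31, edgeR adjusted p = 0.384) for S100a8. For inhibitor against vehicle it was 0.72 (SE 0.32, edgeR adjusted p = 0.34) and 0.56 (SE 0.31, edgeR adjusted p = 0.464). Without inhibitor library 2 these were 0.25 and 0.09, and without libraries 1 and 2 they were −0.08 and 0.05. Arhgdib, the inhibitor that holds Rac proteins in the cytosol, had 853, 751 and 785 normalised counts in sham and 558, 435 and 539 in vehicle libraries, which did not overlap (log2 fold change −0.64, SE 0.26, edgeR adjusted p = 0.479). With the inhibitor it was at 539, 1064 and 483 and overlapped both groups (0.45 against vehicle, SE 0.26, edgeR adjusted p = 0.482). That difference was −0.02 without inhibitor library 2.

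Of the PKC isoforms that phosphorylate the organiser subunit in phagocytes, Prkcb had 199, 278 and 204 normalised counts in sham, 159.5, 114 and 173 in vehicle and 117, 254 and 213 in inhibitor libraries. Its vehicle libraries lay below its sham libraries (log2 fold change −0.61, SE 0.28, edgeR adjusted p = 0.584), and it was at 0.39 for inhibitor against vehicle (SE 0.28, edgeR adjusted p = 0.563). Prkcd had 328, 319.9 and 453 in sham, 304, 372 and 495 in vehicle and 169.5, 360.3 and 241 in inhibitor libraries, and its groups overlapped. Its log2 fold change was 0.09 for vehicle against sham (SE 0.27, edgeR adjusted p = 0.969) and −0.60 for inhibitor against vehicle (SE 0.27, edgeR adjusted p = 0.353). Neither isoform passed the test. Without inhibitor library 2 the difference from vehicle was 0.12 for Prkcb and −0.95 for Prkcd, and without library 1 it was 0.66 and −0.36.

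Of 10 further genes of the NADPH oxidase family, 2 were tested and 0 were called by edgeR or DESeq2. An unadjusted p under 0.05 was reached by 0 for vehicle against sham and by 1 in each inhibitor comparison, beside the 8.28%, 13.4% and 17.96% of all genes given above. Nox3 and Noxa1 had no count in any library, and Nox1, Duox1, Duox2, Duoxa1, Duoxa2 and Noxo1 were below the filter, at no more than 8.18 normalised counts in a library. Poldip2, a binding partner of Cyba, had a log2 fold change of 0.35 (SE 0.25, edgeR adjusted p = 0.763) for vehicle against sham and 0.24 (SE 0.24, edgeR adjusted p = 0.701) for inhibitor against vehicle. Sh3pxd2a, an organiser related to Ncf1, had one of −0.15 (SE 0.26, edgeR adjusted p = 0.932) and 0.63 (SE 0.26, edgeR adjusted p = 0.31), the latter 0.90 without inhibitor libraries 1 and 2.

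Several kinds of blood cell carry the oxidase, and the levels of their markers are given here. For vehicle against sham, the only gene of these blood cell lists that edgeR called was Ltf, 1 of the 7 immature neutrophil markers. For inhibitor against sham, edgeR called 6 of these 7 and 3 of the 6 B lineage markers, all lower. In that comparison it also called 1 of the 8 monocyte and macrophage markers, Cd68, higher, where 3.95% of all genes were called. All lists were chosen with earlier results known, so the sums are a description. The summed normalised counts of 7 markers of immature neutrophils (Mpo, Elane, Prtn3, Ctsg, Ltf, Camp and Ngp) were 5694 to 10412 in sham, 3210 to 3756 in vehicle and 2204 to 3393 in inhibitor libraries, with all 7 log2 fold changes negative for vehicle against sham. Like Cybb, this list and the B lineage list were lower in both injured groups with no overlap with sham. The monocyte and macrophage list was higher, also with no overlap. Of all genes taken singly, 17% did not overlap between vehicle and sham and 22.9% between inhibitor and sham. Mature neutrophil markers (7 genes) summed to 10449 to 13146 in sham, 5186 to 8148 in vehicle and 6510 to 15744 in inhibitor libraries, with 3 of 7 positive for vehicle against sham. S100a8 and S100a9 make up most of that sum. Monocyte and macrophage markers (8 genes) summed to 845 to 939 in sham, 1039 to 1656 in vehicle and 1238 to 1693 in inhibitor libraries, with 7 of 8 positive, so they lay on the other side from Cybb. B lineage markers (6 genes) summed to 517 to 579, 400 to 462 and 256 to 367, with 0 of 6 positive. The leukocyte markers named above summed to 2615 to 2742, 2088 to 2769 and 1921 to 4260, and overlapped between the groups.

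Markers of other joint cells were also counted, with values in the order sham, vehicle and inhibitor. Osteoclast markers (6 genes, 4 tested) summed to 1901 to 2978, 1108 to 1906 and 730 to 1711, and chondrocyte markers (6 genes) to 7660 to 23388, 7328 to 10049 and 1576 to 4343. Fibroblast markers (6 genes) summed to 67529 to 117647, 70563 to 80980 and 25928 to 54691, and erythroid markers (5 genes) to 4637 to 6352, 3381 to 8677 and 2189 to 4223. Col1a1 makes up most of the fibroblast sum. For inhibitor against vehicle, 3 of the 6 fibroblast markers had a positive log2 fold change, with a median of −0.002. Of the 5 chondrocyte markers tested, 0 were positive in that comparison, with a median of −1.63, and 0 were called. For inhibitor against sham, edgeR called 4 of these 5 and Mmp9 of the osteoclast markers, all lower. It called 0 of the fibroblast, endothelial, skeletal muscle and erythroid markers, where 3.95% of all genes were called. Endothelial markers (5 genes) summed to 458 to 801, 500 to 565 and 345 to 1979, and skeletal muscle markers (6 genes) to 8271 to 21582, 5359 to 6608 and 2419 to 25905, each highest in inhibitor library 1. No marker was at 0 in all libraries. The part of any of these lists in the levels of the oxidase genes was not tested.

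**Figure D4:**
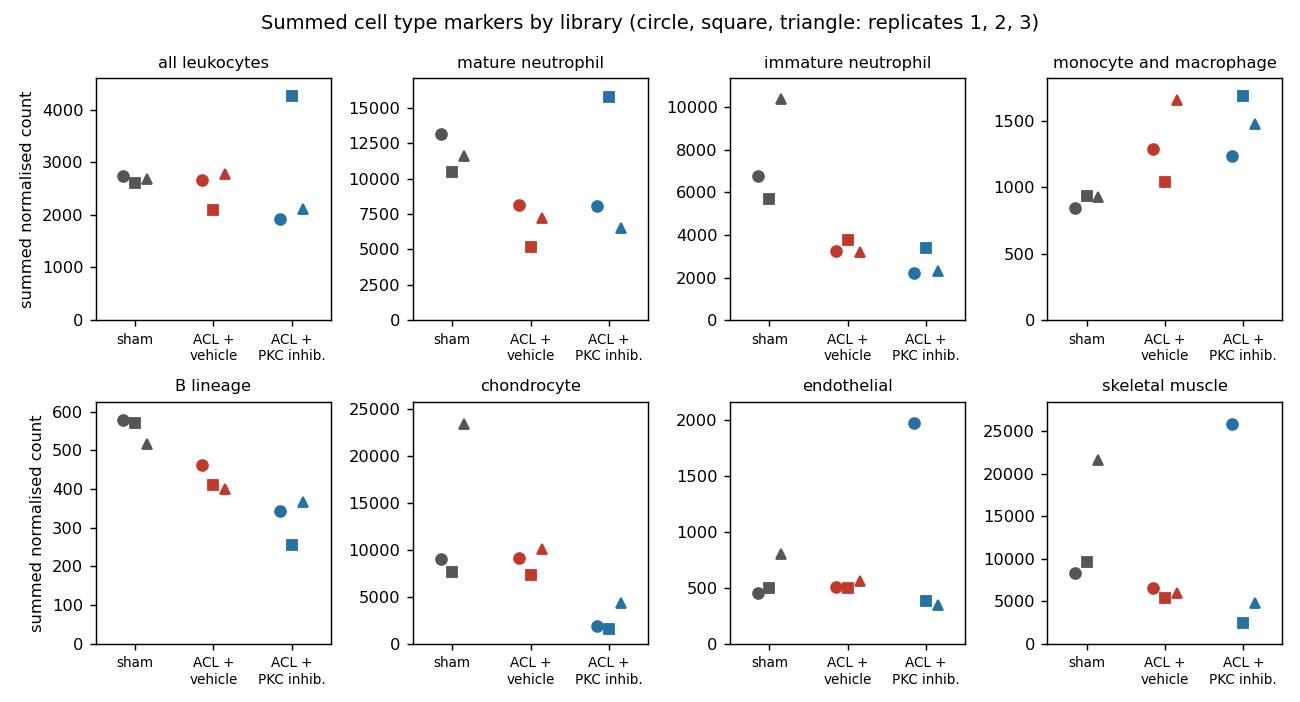
Summed normalised counts of 8 lists of cell type markers by library, with symbols for replicates 1 to 3 and vertical axes from 0 on separate scales. Immature neutrophil and B lineage sums are highest in the sham libraries and monocyte and macrophage sums lowest there; the leukocyte and mature neutrophil sums of inhibitor library 2 exceed those of all other libraries.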

How the data were processed

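Counts per gene name were made by the authors with featureCounts 2.0.1 on reverse-strand read pairs over GENCODE M25 exons, with multi-mapping reads and reads over several genes counted in full, per the file headers. The submitters' processing notes name the mm10 build and HISAT2, whose version is not given there. RNA was extracted with TRIzol and depleted of ribosomal RNA, per the labels' protocols. Columns were given to samples by name. Protein-coding genes were taken by gene name from an earlier GENCODE release than the one used for counting. The 27 columns of the other tables match no sample label and were not used. No member shares exons with another gene on its own strand.

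The deposited counts were fitted here with edgeR 4.0.16 (limma 3.58.1, R 4.3.3) for all 9 libraries together: filterByExpr, which kept 13823 of 55291 genes (28362 were never counted), TMM scaling, a mean per group, robust quasi-likelihood F tests, two-sided, with Benjamini-Hochberg adjustment and a threshold of 0.05. SE is the log2 fold change over the square root of F. Normalised counts are counts scaled from each library's effective size (total times TMM factor, 96.4 to 467 M) to the mean effective size. Log2 CPM used a prior count of 2. DESeq2 1.42.0 was an alternative test. The fit was tested on simulated data. p-values measure the spread between the replicates given, which the labels call biological.

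The members and all lists were chosen with earlier results of these data known. Beside the members, the text names Rac1, Prkcb and Prkcd, any gene of the oxidase lists that passed the threshold, the 3 of each list with the largest change after injury (S100a8, S100a9, Arhgdib, Poldip2 and Sh3pxd2a) and the 5 genes nearest to Cybb and to Nox4. Cell markers came from 11 lists. A gene that the rule and a list would have named is not reported here. Alternatives were DESeq2 size factors, DESeq2, no filter, a table without small RNA and predicted genes, the compared groups alone, a replicate block, each library left out in turn, and inhibitor libraries 1 and 2 left out together.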

Additional observations from a re-analysis of the deposited data

How the results depend on the processing

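Replicate numbers did not pair the samples: libraries with the same number had deviations from their group means that correlated at −0.24 to 0.07. With a replicate block, 0 of the 6 oxidase genes were called for vehicle against sham (Cybb at −1.16), and the block changed no other count of calls in the oxidase lists. Leaving out single libraries gave 0 to 1 of the 6 for vehicle against sham, with 0 without each of the sham and vehicle libraries, and 0 to 1 of the 13 other phagocyte oxidase genes for inhibitor against sham, where Hvcn1, a proton channel, was called without inhibitor 3 (−1.17, edgeR adjusted p = 0.0377). With no filter, 2 of the 13 were called for vehicle against sham, where 0.973% of all genes were called. They were S100a9 (edgeR adjusted p = 0.0241) and S100a8 (edgeR adjusted p = 0.0368). For inhibitor against vehicle, 1 of the 13 was called (S100a9 at 0.79, edgeR adjusted p = 0.0457), where 2.06% of all genes were called. These shares were higher than the 0.304% and 0.731% of the main fit. For inhibitor against sham, 2 of the 6 were called with no filter, Cybb and Nox4, the latter at 2.32. Nox4 passed the filter only through the inhibitor libraries. Signs turned in leave-one-out fits for Rac1 (−0.0903 to 0.0821), Sh3pxd2a (−0.374 to 0.0281), Prkcd (−0.11 to 0.27) and Ncf4 (−0.24 to 0.15) in vehicle against sham, and for Arhgdib (−0.0156 to 0.65) in inhibitor against vehicle. Without inhibitor 1 and 2 together they turned for Rac1 (−0.0272), S100a9 (−0.0829), Arhgdib (−0.0814), Cyba (−0.10), Ncf1 (−0.20) and Rac2 (−0.02) in that comparison. Other fits turned Cyba, Ncf1 and Rac2 in both inhibitor comparisons and Cybb against vehicle, none of them called in the main comparison. The cause was not tested. The share of all genes called ran from 0.00688 to 2.3% for vehicle against sham, 0 to 2.39% for inhibitor against vehicle and 0.972 to 6.71% for inhibitor against sham. Depth limits Nox4 most, with 0 to 76 counts in a library.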
